A study of Drosophila melanogaster with 2 samples.

Results

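The genes described here encode the proteins of the cytosolic ribosome in the midgut of *Drosophila melanogaster*. They were chosen by symbol (RpL or RpS followed by a digit, RpLP, *sta* and *sop*), which left out the mitochondrial mRpL and mRpS genes and found 93 of the 17737 genes in the count tables. Of the 93, 54 were large subunit or stalk symbols and 39 were small subunit symbols, counting *sta* among the latter. No gene was listed as *sop*, and the gene known by that name was listed as *RpS2*. By FlyBase identifier, 92 of the 93 were found in the BDGP6.54 annotation: 19 on chromosome arm 2L, 21 on 2R, 13 on 3L, 23 on 3R, 15 on X and 1, *RpS3A*, on chromosome 4.

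A ribosome joins a small subunit, which reads the messenger RNA, to a large subunit, which forms the peptide bond. Each subunit is a shell of many small proteins around ribosomal RNA, and most of these proteins are needed in equal numbers. In the fly midgut, intestinal stem cells and enteroblasts (together the progenitors, marked by *esg*) renew absorptive enterocytes and hormone-secreting enteroendocrine cells, and loss of 1 copy of many ribosomal protein genes gives the Minute phenotype of slow growth.

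The study asked how the immune deficiency (IMD) pathway acts in progenitors. Midguts of virgin females were sequenced as single cells from 2 genotypes. Both were labelled *w* and carried *esgGal4*, *tubGAL80[ts]* and *UASGFP* in 1 copy (over +). The control is written esg[ts]/+ here. The other genotype, esg[ts]/D30A, adds 1 copy of *UAS-ImdD30A*, a dominant inhibitory form of the adaptor Imd. The *esg* driver is active in progenitors, not in enterocytes. Flies were reared at 18 °C and held for 10 days at 29 °C, and 27 guts were pooled into 1 library per genotype, so genotype and library cannot be told apart and no test between genotypes was possible. All intervals below are 95% intervals for counting error only, and the values in brackets after a median are quartiles over cells.

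The control library held 4242 barcodes with 30383272 unique molecular identifiers (UMIs, each counting 1 captured transcript) and the D30A library 6322 barcodes with 53275921. After filters, 3959 and 4083 cells remained. The median mitochondrial share per cell ranged from 1.13% to 1.76% over the 3 classes below in the control and from 3.57% to 4.98% in D30A. The libraries shared 132 barcode sequences, and of the 127 that were kept in both, 107 fell in the same class in both. In progenitor-like cells these had a median of 676 UMIs in the control and 106944 in D30A, and in enterocyte-like cells 1076 and 68300.5. The shared barcodes carried 0.633% of progenitor-like UMIs in the control and 16.6% in D30A, and 18.3% and 16.4% of enterocyte-like UMIs. The progenitor-like and enterocyte-like shares are therefore also given without them, as are the log2 ratios of the share listed in the closing section. The values printed by cluster, by marker transcript, by cell depth and by gene include them.

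Clustering without the ribosomal protein genes gave 3 classes used for comparison, besides 1 copper cell-like cluster (101 and 130 cells) and 7 clusters left unnamed (567 and 929 cells). Progenitor-like cells (569 control, 534 D30A) carried *esg* at 219 and 262 CPM (counts per 1000000 UMIs) and *Notch* (*N*) at 238 and 251 CPM. Enteroendocrine-like cells (172 and 183) carried 1920 and 1954 CPM of the transcription factor *pros*. In enterocyte-like cells (2550 and 2307), 31 digestive and enterocyte markers summed to 149589 and 100971 CPM, against 6960 and 3210 CPM in progenitor-like and 18212 and 13133 CPM in enteroendocrine-like cells. In sum, the 14 enteroendocrine markers reached 391 and 959 CPM among enterocyte-like cells, and 84.3 and 142 CPM among progenitor-like cells. The part of such foreign transcripts in the results was not tested. *imd* itself stood at 9.95 and 14.3 CPM in progenitor-like cells, 11.3 and 19.4 CPM in enterocyte-like cells and 18.8 and 26.8 CPM in enteroendocrine-like cells. It was thus higher in D30A in all 3 classes, and these counts cannot tell the transgene from the resident gene. Of the 11 enterocyte-like clusters, 7 had no enterocyte marker among their 10 leading genes. Without those 7, the log2 ratios of the share described below were 1.24 and 1.19 for progenitor-like over enterocyte-like cells and −0.22 and −0.53 for enteroendocrine-like over enterocyte-like cells.

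Most transcripts captured from progenitor-like cells came from ribosomal protein genes. In the control, the 93 genes took 61.5% of the UMIs of these cells, against 27.4% in enterocyte-like and 22.4% in enteroendocrine-like cells. In the D30A library the same shares were 56.6%, 26.5% and 17.2%. The order of the 3 classes was thus the same in both libraries, and the widest counting interval, that of control enteroendocrine-like cells, ran from 22.3% to 22.5%. Over single cells, the control medians were 59.7% (54.6 to 63.9) in progenitor-like cells, 27.1% (22.5 to 32.4) in enterocyte-like cells and 21.4% (18.7 to 24.2) in enteroendocrine-like cells. The D30A medians were 54.8% (50.4 to 58.5), 27.2% (22.1 to 31.7) and 17.2% (14.8 to 21.1) in the same order. The quartile ranges of progenitor-like cells did not overlap those of the other classes in either library.

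**Figure D1:**
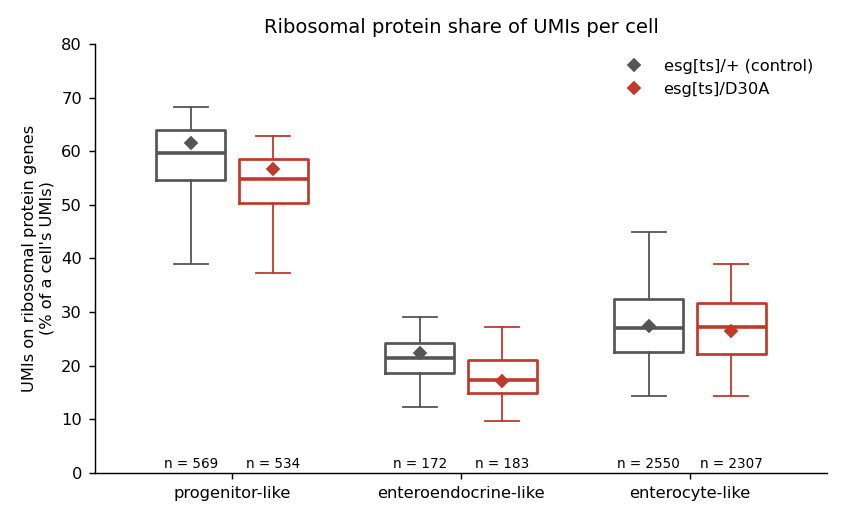
Share of each cell's UMIs on the 93 ribosomal protein genes, in percent, for 3 classes and both libraries; boxes give the median and quartiles over cells, whiskers the percentiles 5 and 95, diamonds the share of the summed UMIs, and n the number of cells. Progenitor-like cells stand at medians of 59.7% and 54.8%, above both other classes in each library.

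The progenitor-like share was 2.24 times that of enterocyte-like cells in the control (log2 ratio 1.16) and 2.14 times in D30A (1.10). Without the shared barcodes the log2 ratios were 1.09 and 1.05, since the enterocyte-like shares then were 28.8% and 27.3% and the progenitor-like shares 61.5% and 56.4%. Enteroendocrine-like cells had 0.815 times the enterocyte-like share in the control (−0.29) and 0.651 times in D30A (−0.62), or −0.37 and −0.66 without the shared barcodes. The enteroendocrine-like order turned when cells were instead classed by a single UMI of *pros*, which gave 26.4% and 25.5% for 173 and 217 cells, against 23.3% and 23.3% for enterocyte-like cells defined by their digestive transcripts. The progenitor-like excess stood under that definition too, at log2 ratios of 1.24 and 1.00.

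These are shares of a total, and the total was made up differently in each class. The 100 most abundant other genes took 44.8% and 39.0% of enterocyte-like UMIs, against 12.2% and 14.8% in progenitor-like and 13.9% and 17.0% in enteroendocrine-like cells. With those 100 genes left out of the total, ribosomal protein genes took 70.1% and 66.5% of progenitor-like UMIs, 49.7% and 43.4% of enterocyte-like UMIs and 26.0% and 20.8% of enteroendocrine-like UMIs. The log2 ratio of progenitor-like over enterocyte-like cells was then 0.50 and 0.62, against 1.16 and 1.10 with all genes, and that of enteroendocrine-like over enterocyte-like cells was −0.94 and −1.06. In number, the median progenitor-like cell held 5956 ribosomal protein UMIs in the control and 9722.5 in D30A. The median enteroendocrine-like cell held 933.5 and 1217, and the median enterocyte-like cell 253 and 347.

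Within the progenitor-like class the share was nearly even. The cluster led by *rau* and *rst*, which also carried *Dl* and *N* among its leading genes, stood at 61.1% in the control and 55.9% in D30A. The deeper cluster led by *CG15629* and *CG44085* stood at 61.9% and 57.2%. Cells with a UMI of *Dl*, the Notch ligand that marks stem cells, had 61.6% in the control (186 cells) and cells without one 61.4% (383 cells). In D30A these were 56.4% (245 cells) and 56.9% (289 cells). Cells with *Dl* thus stood slightly above the others in the control and slightly below them in D30A.

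The 4 enteroendocrine-like clusters differed by the hormones they carried. The cluster led by *Mip* and *CCHa2*, both peptide hormone genes, had the lowest share, 18.8% in the control and 16.1% in D30A. The *Dh31* and *Tk* cluster, which makes diuretic hormone and tachykinin, stood at 23.1% and 17.0%. The *Orcokinin* cluster stood at 26.5% and 18.1%, on 35 and 40 cells. The cluster led by *NPF* (neuropeptide F) stood at 26.9% and 22.1%, on 27 and 22 cells. Those values are shares of summed UMIs, and medians over cells gave another order. The *Orcokinin* medians were 21.6% in the control and 23.6% in D30A. The *Dh31* and *Tk* cluster had medians of 21.8% and 16.5%, and the *NPF* cluster 26.6% and 22.2%. The *Mip* and *CCHa2* cluster was lowest by medians too. By single transcripts, cells with *AstC* and no *Tk* had 21.4% and 15.9% (90 and 70 cells), and cells with *Tk* and no *AstC* had 23.9% and 18.4% (61 and 74 cells). The *Tk* cells were above the *AstC* cells in both libraries, with quartile ranges that overlapped: 17.2 to 23.7 against 20.2 to 26.4 in the control.

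Enterocyte-like clusters spread the most, from 17.7% to 38.3% in the control and from 9.22% to 32.2% in D30A. The cluster of lysozyme genes (*LysC*, *LysB*, *LysD*) had 20.01% and 21.8%. The cluster of lysosomal mannosidase genes (*LManV*, *LManII*) had 38.0% and 30.6%, and the cluster led by *CG17571* had 38.3% and 31.3%. The cluster of the serine proteases *Jon66Ci* and *Jon99Fi* had 25.4% and 23.7%. The lowest share in both libraries, 17.7% and 9.22%, was in a cluster of 57 and 33 cells led by *CR43314* and *amn*. No enterocyte-like cluster reached the lowest progenitor-like cluster in either library.

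**Figure D2:**
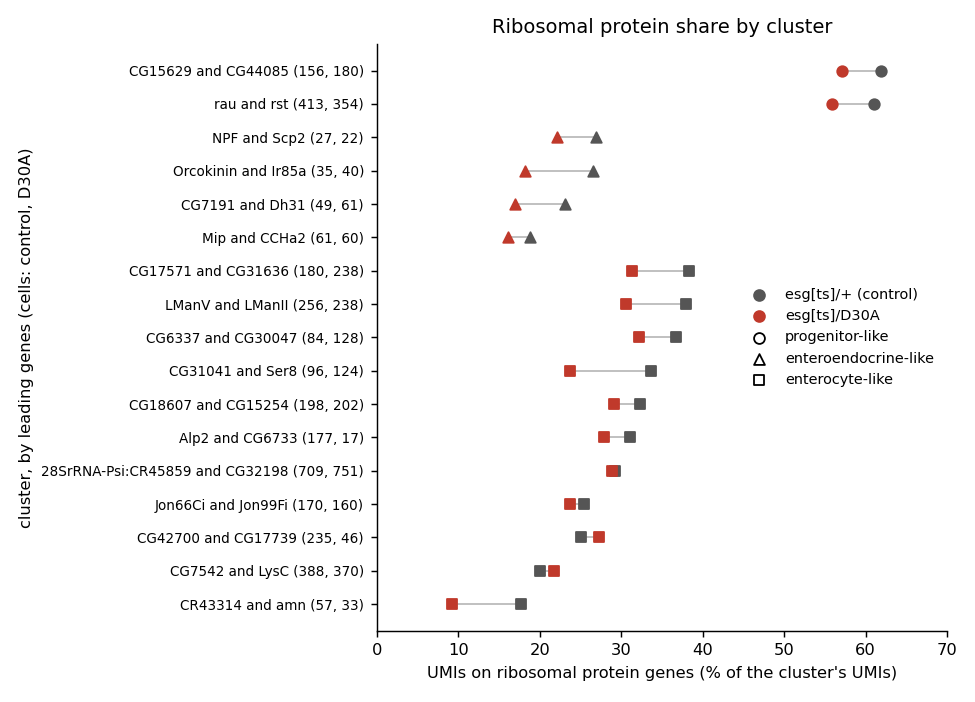
Share of summed UMIs on ribosomal protein genes, in percent, in each of the 17 clusters of the 3 classes, copper cell-like cells left out (rows, labelled by 2 leading genes and the number of control and D30A cells), for both libraries. The 2 progenitor-like clusters lie between 55.9% and 61.9%, and the highest enterocyte-like cluster lies at 38.3%.

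The share depended on cell depth in progenitor-like cells and hardly in enterocyte-like cells. Progenitor-like cells were ranked by UMIs and split into 4 equal groups, and from the shallowest to the deepest the share was 50.4%, 58.2%, 61.9% and 63.0% in the control. In D30A the groups had 47.6%, 53.9%, 56.4% and 58.2%. In enterocyte-like cells the groups ran from 27.2% to 27.6% in the control and from 26.4% to 27.5% in D30A. The shallowest group of progenitor-like cells, at a median of 1895 and 4783 UMIs, was still above each group of enterocyte-like cells, the deepest of which had medians of 6487 and 20223 UMIs.

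The excess was of nearly the same size in both subunits. Large subunit genes made up between 57.7% and 59.0% of ribosomal protein UMIs in all 3 classes of both libraries. The median log2 ratio of progenitor-like over enterocyte-like cells was 1.17 in the control for 49 large subunit genes and 1.22 for 33 small subunit genes with at least 2000 UMIs in the 3 classes together. In D30A it was 1.14 and 1.17.

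Gene by gene, 84 of the 93 members had at least 20 UMIs and could be compared. All 84 were higher in progenitor-like than in enterocyte-like cells in both libraries, with a median log2 ratio of 1.22 in the control (range 0.54 to 2.01) and 1.15 in D30A (0.46 to 1.63). At least 2-fold in both libraries were 58 of the 84, against 31.3% of the 7309 genes tested, and none of the members was 2-fold lower, against 18.7%. A log2 ratio above 0 was found for 66.03% of the genes tested in the control and for 60.2% in D30A. Over all genes the median log2 ratio was itself above 0, at 0.65 and 0.39, and once it was set to 0, 4 of the 84 were past 2-fold, as were 18.7% of all genes. The members with the lowest control ratios, *RpS21* at 0.54 and *RpL37A* at 0.55, lay below the control median of all genes.

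The size of the excess differed between genes by more than counting error, and nearly alike in both libraries. Across the 82 members with at least 2000 UMIs, which share libraries and classes and are not independent, the control and D30A log2 ratios had a Pearson r of 0.98 and a Spearman rho of 0.98, with a median absolute difference of 0.06. At the top stood *RpS3*, which sits where messenger RNA enters the small subunit and also has DNA repair activity (FBgn0002622, BDGP6.54 chr3R:23358812-23360207). Its level was 9218 CPM in control progenitor-like cells and 2722 CPM in control enterocyte-like cells, and 8535 and 2763 CPM in D30A. The log2 ratio was 1.76 (1.74 to 1.78) in the control and 1.63 (1.61 to 1.64) in D30A. *sta*, which encodes the small subunit protein uS2 (FBgn0003517, chrX:1481797-1483413), went from 3514 CPM in enterocyte-like to 11760 CPM in progenitor-like control cells, a log2 ratio of 1.74, and 1.63 in D30A. *RpS5a* followed at 1.75 and 1.62, *RpL24-like* at 1.67 and 1.36, and *RpS9* at 1.58 and 1.56. *RpLP0-like*, at 50.6 and 12.5 CPM in the control, had the highest control ratio but on few UMIs, 2.01 (1.76 to 2.27). In D30A it had 1.60 (1.44 to 1.76), below *RpS3*, *sta* and *RpS5a*. The proteins encoded by *RpL24-like* and *RpLP0-like* are known in yeast as ribosome assembly factors (Rlp24 and Mrt4) and not as parts of the finished ribosome.

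At the bottom stood *RpS21*, a small subunit protein (FBgn0015521, chr2L:2856070-2857029), at 5821 CPM in control progenitor-like and 3991 CPM in control enterocyte-like cells. Its log2 ratio was 0.54 (0.53 to 0.56) in the control and 0.51 (0.50 to 0.53) in D30A. *RpL37A* (FBgn0261608, chr2L:5070957-5072055) had 6232 and 4252 CPM, a log2 ratio of 0.55, and 0.46 in D30A. *RpL29* had 0.60 and 0.62 and *RpL35* 0.62 and 0.49. *RpS27A*, at 0.65 and 0.63, closed the lowest group. The intervals of *RpS21* and *RpS3* were over 1 log2 unit apart in both libraries.

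The low group held short genes. In the 81 members with an annotated coding sequence and at least 2000 UMIs, coding length and the progenitor-like over enterocyte-like log2 ratio had a Spearman rho of 0.61 in the control and 0.63 in D30A (Pearson r with log length 0.58 and 0.57). This is across genes of the same 2 libraries, and other genes with at least 2000 UMIs had a rho of 0.33 (n = 1977) and 0.32 (n = 1978). Enterocyte-like values are summed UMIs, and the deepest 638 of 2550 control cells gave 13684708 of 15467002. In D30A the deepest 577 of 2307 cells gave 18825098 of 21074948. The values thus describe mainly these deep cells, and the pattern in the shallower ones was not tested gene by gene. The 27 members with the shortest coding sequences (75 to 420 bases) had a median log2 ratio of 0.92 in the control and 0.95 in D30A. The middle 27 (429 to 570 bases) had 1.24 and 1.15, and the longest 27 (573 to 1248 bases) 1.38 and 1.35. Exceptions were *RpL37a*, a gene other than *RpL37A*, of 279 bases, at 1.34 and 1.16, and *RpL5*, of 897 bases, at 0.85 and 0.71; both were picked after their values were seen.

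**Figure D3:**
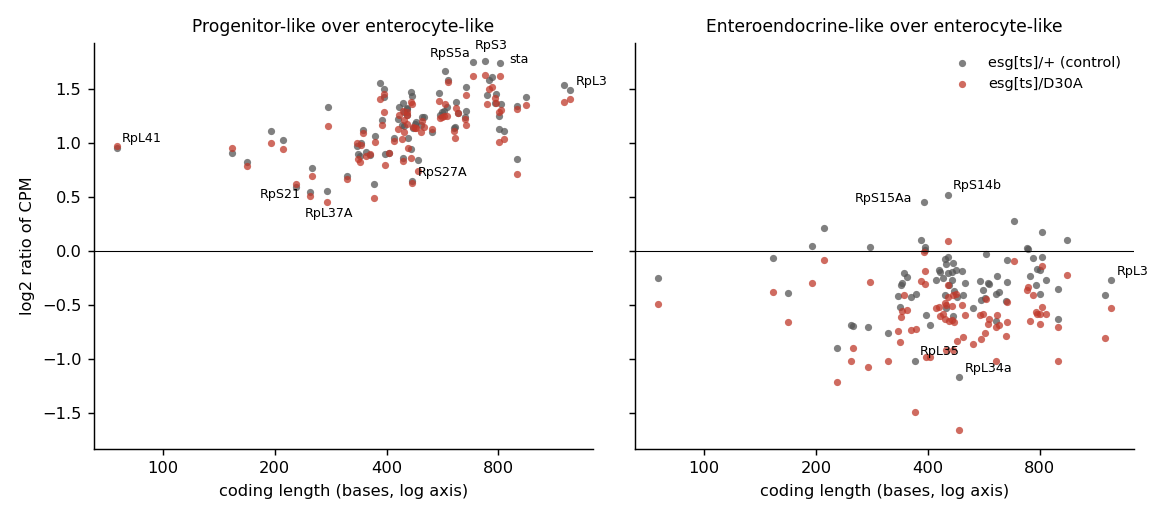
Log2 ratio of CPM between classes (vertical axis) against coding length in bases (horizontal, log axis) for 81 member genes, each drawn once per library. On the left, the shortest 27 have medians of 0.92 and 0.95 and the longest 27 1.38 and 1.35; on the right, enteroendocrine-like over enterocyte-like cells, the 3 length groups have medians from −0.32 to −0.27 in the control.

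The length pattern did not appear between enteroendocrine-like and enterocyte-like cells, where rho was 0.12 and 0.03 for the members and 0.32 and 0.29 for other genes. Between progenitor-like and enteroendocrine-like cells rho was 0.60 and 0.58 for the members and 0.14 and 0.14 for other genes. The share of the short members was also uneven within the enterocyte-like class. The 27 shortest members made up 34.4% and 34.8% of ribosomal protein UMIs in progenitor-like cells. In the deepest of the 4 groups of enterocyte-like cells they made up 39.7% and 39.9%, and in the 3 other groups between 35.7% and 36.1% in the control and between 36.6% and 36.7% in D30A. By cluster, the short members had 41.0% and 40.8% in the lysozyme cluster and 35.8% and 36.4% in the largest, shallow cluster, led by a 28S rRNA pseudogene. In progenitor-like cells the short members did not gain with depth: the shallowest group had 35.0% and 35.6%, and the 3 other groups lay between 34.1% and 34.5% in the control and at 34.8% in D30A.

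**Figure D4:**
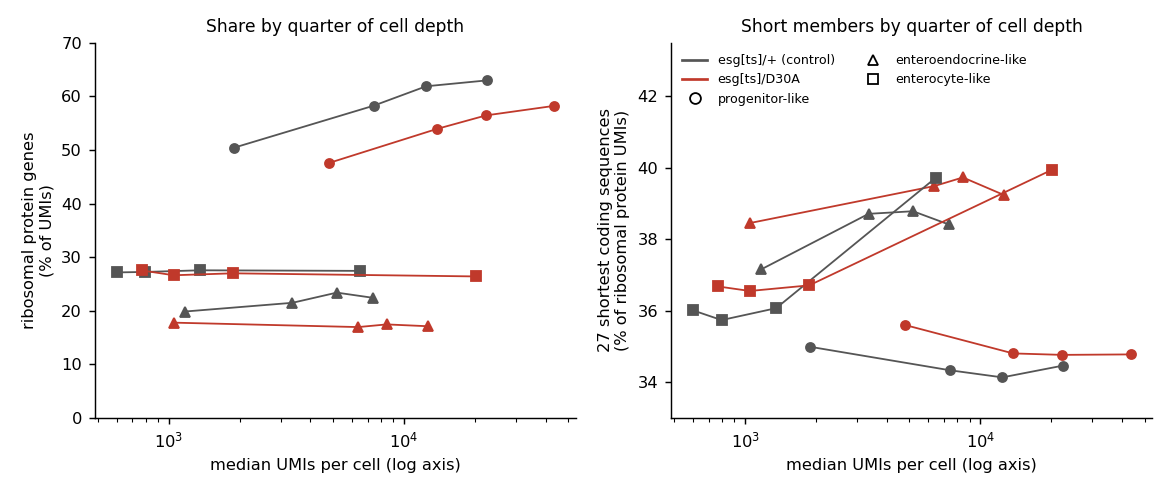
Left, share of UMIs on ribosomal protein genes in percent; right, share of ribosomal protein UMIs on the 27 members with the shortest coding sequences in percent (axis from 33%); both in 4 equal groups of cells ranked by UMIs (horizontal axis, median UMIs per cell, log axis). Enterocyte-like cells keep a flat share near 27% while their short members go from 36.02% to 39.7% in the control and from 36.7% to 39.9% in D30A.

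Among members with roles of their own, the 3 stalk proteins, which call translation factors to the ribosome, did not go together. The base of the stalk, *RpLP0*, had a log2 ratio of progenitor-like over enterocyte-like cells of 1.43 in the control and 1.35 in D30A. The 2 tips, *RpLP1* and *RpLP2*, had 0.90 and 0.85, and 0.88 and 0.82. The same held for the genes whose product is fused to ubiquitin, since *RpL40* had 1.56 and 1.40 while *RpS27A* had 0.65 and 0.63. *RpL5* and *RpL11*, which bind the 5S ribosomal RNA together, had 0.85 and 0.71 against 1.47 and 1.39. *RpS6*, the substrate of S6 kinase, had 1.45 and 1.36. *RpS12*, which in flies is needed to sense loss of other ribosomal protein genes, had 0.84 and 0.83, *RpS2* (string of pearls) 1.254 and 1.29, and *RpL41*, the shortest member, 0.96 and 0.97.

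Between enteroendocrine-like and enterocyte-like cells, 69 of 84 members were lower in the control and 82 of 84 in D30A, with medians of −0.28 and −0.60, whereas 81.3% and 75.5% of all genes were higher in enteroendocrine-like cells. None of the members was 2-fold higher in both libraries, against 44.3% of all genes. Only *RpL34a* and *RpL35* were at least 2-fold lower in both libraries, 2 of 84 against 8.3% of 7015 genes. All genes had a median of 1.34 and 0.89 here, and once that was set to 0, 79 of the 84 were 2-fold lower (18.8% of all genes). *RpL34a* (FBgn0039406, chr3R:26058420-26059267) had 128 CPM in control enteroendocrine-like and 287 CPM in control enterocyte-like cells, and 114.5 and 363 CPM in D30A. Its log2 ratio was −1.17 (−1.47 to −0.89) in the control and −1.67 (−1.90 to −1.44) in D30A. *RpL35* had −1.02 and −1.50, *RpL29* −0.90 and −1.22, *RpL36A* −0.76 and −1.02, *RpL37A* −0.70 and −1.08, and *RpL15* −0.65 and −1.03.

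At the other end, *RpS14b* had 918 CPM in control enteroendocrine-like and 640 CPM in control enterocyte-like cells, a log2 ratio of 0.52, and 0.09 in D30A. *RpS15Aa* had 0.45 (0.39 to 0.52) in the control and −0.01 (−0.06 to 0.04) in D30A, *RpS5a* 0.28 and −0.09, and *RpL38* 0.21 and −0.08. *RpLP0-like* had 1.07 (0.34 to 1.72) on 21 enteroendocrine-like UMIs in the control and 0.37 (−0.14 to 0.83) in D30A. Across 82 members the control and D30A values had a Pearson r of 0.98 and a Spearman rho of 0.97, at a median absolute difference of 0.33. The order of genes was thus held while the whole group lay lower in D30A.

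Progenitor-like cells exceeded enteroendocrine-like cells for all 84 members in both libraries, by a median log2 ratio of 1.47 in the control and 1.73 in D30A. At least 2-fold in both were 78 of the 84, against 8.08% of 6694 genes. The count was 26 when classes were set by single transcripts, for which no share over all genes is given. Over all genes the median was below 0, at −0.80 and −0.64, and with it set to 0 all 84 passed (16.6% of all genes). The largest ratios were those of *RpL34a* (2.02 and 2.41), *RpL4* (1.95 and 2.19), *RpS9* (1.89 and 2.19), *RpL7* (1.82 and 2.15) and *sta* (1.80 and 2.15). The smallest were those of *RpS15Ab* (0.70 and 1.74, on 20 and 19 enteroendocrine-like UMIs), *RpS15Aa* (0.76 and 1.18), *RpS14b* (0.80 and 1.09), *RpL38* (0.82 and 1.03), *RpLP0-like* (0.94 and 1.23) and *RpS28b* (1.07 and 1.30).

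Several members have a second copy in the fly genome, and for most pairs 1 copy gave nearly all UMIs. In the 8042 kept cells *RpL10Aa*, *RpL37b*, *RpS28a* and *RpL22-like* had no UMI, against 320532 for *RpL10Ab*, 529195 for *RpL37a*, 321503 for *RpS28b* and 55382 for *RpL22*. A count of 0 allows up to 0.001% of the UMIs of the pair for the first 3 and up to 0.005% for *RpL22-like*. *RpS10a* had 7 UMIs, *RpL7-like* 4, *RpS28-like* 5, *RpS19b* 10 and *RpS5b* 39, in 3, 4, 5, 8 and 33 cells. Their partners *RpS10b*, *RpL7*, *RpS19a* and *RpS5a* had between 198499 and 365633. These 9 genes made up the members that fell under 20 UMIs in the 3 classes. *RpS5b*, *RpS19b* and *RpL22-like* are known in flies as copies used in the gonads.

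For 5 pairs both symbols were counted in number, and the balance differed between classes. *RpL34a* made up 9.52% (control) and 12.5% (D30A) of the *RpL34a* and *RpL34b* UMIs in enterocyte-like cells, 7.43% and 9.76% in progenitor-like cells, and 5.43% and 6.38% in enteroendocrine-like cells. *RpS14b* made up 17.6% and 23.4% of the *RpS14a* and *RpS14b* UMIs in enterocyte-like cells, 18.2% and 22.4% in progenitor-like cells, and 24.1% and 28.8% in enteroendocrine-like cells. *RpS14a* and *RpS14b* lie side by side (chrX:7933742-7934677 and chrX:7934898-7935792) and encode the same protein, so reads can be shared between them and their split is uncertain. *RpS15Ab* was between 0.589% and 1.18% of its pair with *RpS15Aa* in each class and library, which near-identical copies could also give. *RpL24-like* was between 6.33% and 8.53% of the sum with *RpL24*, and *RpLP0-like* between 0.508% and 1.72% of that with *RpLP0*.

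The 79 members with at least 50000 UMIs were found in most cells, between 5362 (*RpS14b*) and 7992 (*RpS26*) of 8042. Their levels ran from 1595 to 13838 CPM in control progenitor-like cells, from 918 to 5995 CPM in control enteroendocrine-like cells and from 640 to 7466 CPM in control enterocyte-like cells. Each UMI stands for 1 captured 3′ end and is not divided by length, and how well each 3′ end is captured is not known, so these levels do not rank the genes by transcript number. No cell held more than 0.933% of the UMIs of any member with at least 2000 UMIs.

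Between genotypes, the share of summed UMIs was lower in the D30A library in all 3 classes. The log2 ratio of D30A over control was −0.12 in progenitor-like cells, −0.05 in enterocyte-like cells and −0.38 in enteroendocrine-like cells, which are 0.921, 0.965 and 0.770 times the control share. Over single enterocyte-like cells, the median was 27.1% in the control and 27.2% in D30A. By summed UMIs, both progenitor-like clusters were lower (−0.13 and −0.11), as were all 4 enteroendocrine-like clusters (−0.55 to −0.22). The 11 enterocyte-like clusters ran from −0.94 to 0.12, and 9 were lower. The −0.55 was that of the *Orcokinin* cluster (35 and 40 cells). Its median over cells was higher in D30A, at 23.6% against 21.6%, while those of the other enteroendocrine-like clusters were lower. Of the 9, only the largest (709 and 751 cells) had a higher median over cells in D30A, at 28.3% against 27.0%. With each enterocyte-like cluster given the same weight in both libraries, the enterocyte-like shares were 28.7% and 25.9%, a log2 ratio of −0.15. Copper cell-like cells, which secrete acid, had 32.5% and 29.2%. By single transcripts the log2 ratios were −0.24 in progenitor-like, −0.00083 in enterocyte-like and −0.05 in enteroendocrine-like cells. Mitochondrial transcripts moved with the difference, and with them left out of the total they were −0.08, −0.02 and −0.33.

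Single members went both ways. In progenitor-like cells, 9 of 84 were higher in D30A by at least 0.32 on the log2 scale and 12 were lower by as much, against 35.8% and 15.4% of 7253 genes. In enterocyte-like cells, 12 were higher and 6 lower, against 59.2% and 5.17% of 7694 genes. In enteroendocrine-like cells, 1 was higher and 55 lower, against 26.3% and 27.7% of 5757 genes. With classes set by single transcripts the enteroendocrine-like counts were 11 higher and 8 lower. The progenitor-like counts were then 5 higher and 23 lower, and the enterocyte-like counts 12 and 2. No share over all genes is given for these recomputed counts, so neither an excess of members nor its absence can be read from them. The cause of the change was not tested. The median of all genes was 0.14 in progenitor-like cells, 0.44 in enterocyte-like cells and −0.03 in enteroendocrine-like cells, and the medians of the members were −0.13, −0.07 and −0.40. With the median of all genes set to 0, the counts of higher and lower members were 4 and 29, 1 and 62, and 1 and 52, in the same order of classes. Of all genes, 26.7% were then higher and 24.4% lower in progenitor-like cells. In enterocyte-like cells these shares were 28.6% and 25.2%, and in enteroendocrine-like cells 27.8% and 25.7%. The median of the members was thus below that of all genes in each class.

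*RpS27*, a small subunit protein with a zinc finger (FBgn0039300, chr3R:25245955-25247514), had the highest log2 ratio of D30A over control among the 82 members with at least 2000 UMIs, in each class. It went from 3863 to 6083 CPM in progenitor-like cells, from 1395 to 2014 CPM in enteroendocrine-like cells and from 2269 to 3755 CPM in enterocyte-like cells. Its log2 ratios were 0.65 (0.64 to 0.67), 0.53 (0.43 to 0.63) and 0.73 (0.71 to 0.74). *RpS10b* had 0.60, 0.24 and 0.65 in progenitor-like, enteroendocrine-like and enterocyte-like cells. *RpL27A* had 0.53, 0.21 and 0.59, *RpL41* 0.50, 0.25 and 0.49, *RpS3A* 0.44, 0.15 and 0.55, and *RpL31* 0.43, 0.17 and 0.49. *RpLP0-like* had 0.43, 0.14 and 0.84, with the interval in enteroendocrine-like cells running from −0.66 to 0.98.

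*RpL3*, which lies close to the peptidyl transferase centre (FBgn0020910, chr3R:11221894-11225173), was among the lowest. It went from 8838 to 6246 CPM in progenitor-like cells, from 2609 to 1636 CPM in enteroendocrine-like cells and from 3146 to 2358 CPM in enterocyte-like cells, log2 ratios of −0.50 (−0.52 to −0.49), −0.67 (−0.76 to −0.59) and −0.42 (−0.43 to −0.40). *RpS4* had −0.43, −0.73 and −0.48, and *RpS25* −0.42, −0.68 and −0.37. *RpLP0* had −0.42, −0.66 and −0.34, *RpL8* −0.40, −0.66 and −0.32, *RpL19* −0.37, −0.65 and −0.34, and *RpS14a* −0.36, −0.62 and −0.36. *RpS15Ab* had 0.18, −0.86 and 0.22, the middle value on 20 and 19 UMIs.

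The spread of these values was nearly the same in the 3 classes, with standard deviations over 82 members of 0.25, 0.24 and 0.26. The 3 comparisons take their cells from the same 2 libraries, so their likeness is no repeat of the result. The same direction was seen in cells and barcodes outside the 3 classes. *RpS27* had 0.62 in copper cell-like cells, 0.60 in unnamed clusters and 0.63 in the barcodes that the filters removed, *RpS10b* had 0.54, 0.48 and 0.51, *RpL3* had −0.41, −0.60 and −0.45, and *RpS4* had −0.49, −0.63 and −0.49. Removed barcodes were mostly rich in mitochondrial transcripts, with a median of 32.1% in the control and 41.3% in D30A. A property of a whole library cannot be told apart from the genotype here.

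**Figure D5:**
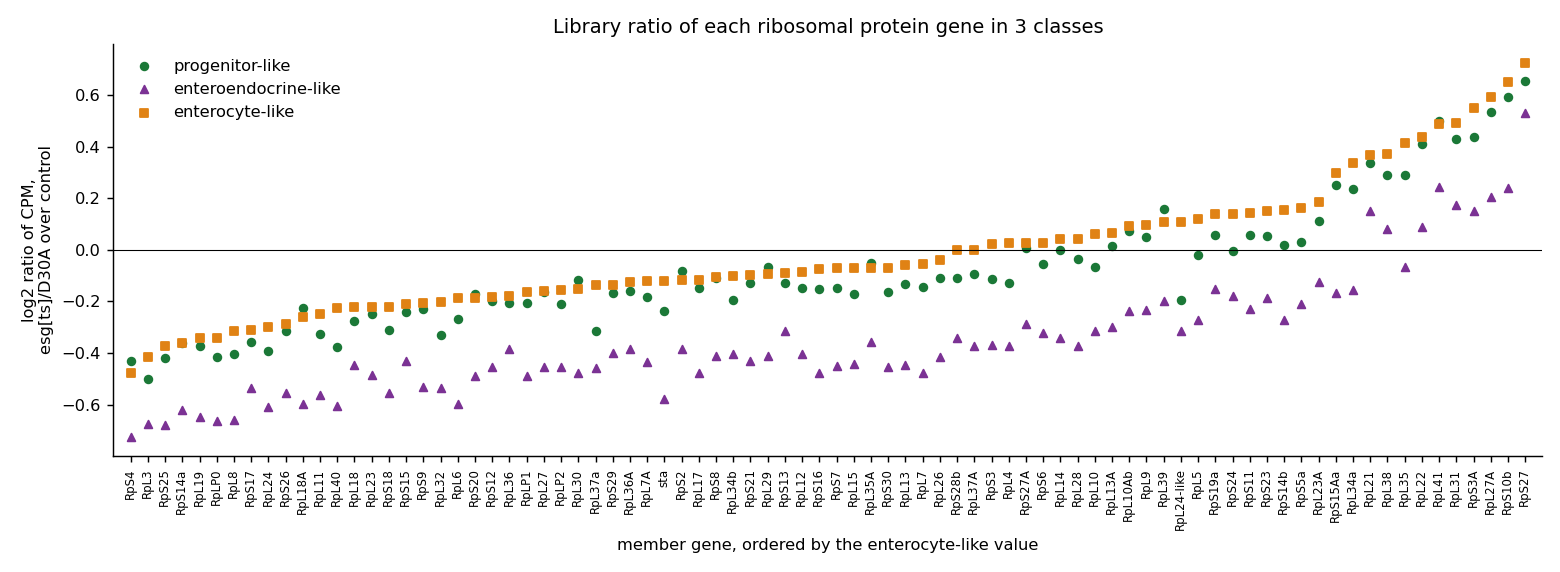
Log2 ratio of the CPM in D30A to the CPM in the control, for the 82 member genes with at least 2000 UMIs (horizontal axis, ordered by the enterocyte-like value) in 3 classes drawn from the same 2 libraries. *RpS4* lies lowest in enterocyte-like cells at −0.48 and *RpS27* highest at 0.73, and enteroendocrine-like values lie around a median of −0.40 against −0.13 and −0.07 in the other classes.

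Across the 81 members with a coding length, the library ratio had a Spearman rho with coding length between −0.11 and −0.03 in the 3 classes. With the UMIs of the gene, rho was −0.44 in progenitor-like, −0.44 in enteroendocrine-like and −0.48 in enterocyte-like cells, against −0.16, −0.07 and −0.12 over other genes with at least 2000 UMIs (n = 1977, 1976 and 1978). The most counted members were thus more often the lower ones in D30A, and genes of 1 library are not independent points.

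Genes that build and serve the ribosome were set beside the members. Of 22 ribosome biogenesis genes, all 22 were higher in progenitor-like than enterocyte-like cells in both libraries and 19 were at least 2-fold higher (31.3% of all genes were), with medians of 2.19 in the control and 1.66 in D30A. The highest were *Fib* (fibrillarin, which methylates ribosomal RNA; 3.52 and 2.97) and *CG4038* (3.44 and 3.14), and the lowest *Tif-IA* (an RNA polymerase I factor; 0.70 and 0.52) and *CG7637* (0.87 and 0.37). Of 26 initiation factor genes, 26 were higher and 19 at least 2-fold, with medians of 1.41 and 1.18. These included the eIF3 subunits *eIF3f1* (1.95 and 1.68) and *eIF3a* (1.94 and 1.76), *eIF2alpha* (1.85 and 1.87), *eIF5* (0.59 and 0.42), *eIF3j* (0.65 and 0.30), *eIF4B* (0.80 and 0.01) and *eIF4G1* (0.69 and 0.17). Of 8 elongation and release factor genes tested, 4 were at least 2-fold higher, with medians of 1.16 and 1.03, from *eRF1* (1.90 and 1.36), *eEF2* (1.28 and 1.15) and *eEF5* (1.24 and 1.17) down to *eEF1beta* (0.63 and 0.54) and *eEF1delta* (0.80 and 0.37). The 3 ribosome-bound factors were all past 2-fold: *bic* (2.63 and 2.28) and *Nacalpha* (1.73 and 1.504), which together form the nascent chain complex, and *Rack1* (1.35 and 1.33).

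The 73 mitochondrial ribosomal protein genes, 72 of them tested, behaved differently from the cytosolic members. In progenitor-like against enterocyte-like cells 13 were at least 2-fold higher, with medians of 0.68 and 0.35, close to the medians of all genes (0.65 and 0.39). The highest were *mRpL39* (2.26 and 1.68) and *mRpS28* (2.23 and 2.01), and the lowest included *mRpL20* (−0.92 and −0.74) and *mRpS33* (−0.78 and −0.91). In sum they took 0.272% and 0.245% of progenitor-like UMIs, 0.170% and 0.194% of enterocyte-like UMIs and 0.269% and 0.229% of enteroendocrine-like UMIs. Among 15 genes of growth and stress control, *Myc*, which drives ribosome production in flies, had 2.51 and 2.48 and *brat*, a growth suppressor, 4.06 and 3.73. *Xrp1*, which acts downstream of *RpS12* in flies, had 1.39 and 0.85, and *Thor* (4E-BP), which blocks cap-dependent initiation, had −0.66 and −0.42. *Rheb* (−0.43 and −0.76), *S6k* (−0.11 and −0.26) and *Mnt* (0.10 and −0.53) were also at the low end.

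Between enteroendocrine-like and enterocyte-like cells, none of the 22 biogenesis genes was past 2-fold in both libraries, against 44.3% of all genes higher and 8.3% lower. Their medians were 0.67 and 0.07, against 1.34 and 0.89 over all genes, from *vito* (2.23 and 0.75) and *Nnp-1* (2.13 and 0.68) to *Non1* (−0.39 and −1.02). Of 26 initiation factors, 6 were at least 2-fold higher and none lower, a smaller share than over all genes, with medians of 0.63 and 0.19. They were led by *eIF4B* (2.25 and 1.28) and *eIF5* (2.22 and 1.88). *eEF1alpha2*, the form of the elongation factor that neurons use, stood in enteroendocrine-like cells at 100 and 143 CPM, against 0.323 and 1.23 CPM in enterocyte-like ones. *eEF1beta* was the lowest elongation factor, at −0.70 and −1.14.

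Between the libraries the other lists differed from one another. The shares of all genes past 0.32 on the log2 scale, given above, were 35.8% higher and 15.4% lower in progenitor-like, 59.2% and 5.17% in enterocyte-like, and 26.3% and 27.7% in enteroendocrine-like cells. In progenitor-like cells, 7 of 8 elongation and release factors were past the same 0.32 on the log2 scale upwards and none downwards, with a median of 0.45; *eRF1* had 0.81 and *eEF1alpha1* 0.56, while *eEF1beta* had −0.28. In enterocyte-like cells it was 8 of 9, with a median of 0.73, and in enteroendocrine-like cells 3 of 9, with 1 lower and a median of 0.18. Initiation factors had 11 higher and 3 lower of 26 in progenitor-like cells, with *eIF2gamma* at 1.21 and *pAbp*, the poly(A)-binding protein, at 1.08, and the eIF3 subunits *eIF3g1* (−0.46) and *eIF3f1* (−0.45) lowest. Biogenesis genes had 4 higher and 2 lower of 22 in progenitor-like cells, led by *Tif-IA* (0.87) and *Nopp140* (0.77) and with *eIF6* (−0.68) and *NHP2* (−0.33) lowest. In enterocyte-like cells 17 were higher and none lower, with a median of 0.45 against 0.44 over all genes. In enteroendocrine-like cells, where 16 were tested, 1 was higher and 11 lower, with a median of −0.51 against −0.40 for the members. Of the 3 ribosome-bound factors, *bic* had −0.33, −0.54 and 0.02 in progenitor-like, enteroendocrine-like and enterocyte-like cells, *Rack1* −0.23, −0.52 and −0.21, and *Nacalpha* 0.11, −0.29 and 0.34. *Myc* had 1.22, 0.59 and 1.26 in progenitor-like, enteroendocrine-like and enterocyte-like cells, *Tor* 0.99, 0.73 and 1.81, and *Xrp1* −0.64, −0.50 and −0.10. Mitochondrial ribosomal protein genes had 9 higher and 18 lower of 72 in progenitor-like cells, with a median of −0.13, against −0.13 for the cytosolic members. In enterocyte-like cells 24 of 72 were higher and none lower, with a median of 0.17 against −0.07 for the members. In enteroendocrine-like cells 6 of 71 were higher and 29 lower, with a median of −0.23 against −0.40.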

How the data were processed

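Single midgut cells of 1 control library and 1 esg[ts]/D30A library were compared. Per the labels, live cells came from guts digested in elastase at 1 mg/ml and cleaned on an Optiprep gradient, and the deposited values are whole-number UMI counts per gene and barcode. The authors' processing notes name Cell Ranger 3.0 and Seurat 3.1.1, and the genome build of the counts is not given in the sources used here. Gene positions and coding lengths were taken from the BDGP6.54 annotation by FlyBase identifier, without conversion.

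Barcodes were retained from 200 detected genes upwards and up to a mitochondrial share of 25% (4098 control, 4301 D30A). Scrublet in scanpy 1.11.5 marked no doublet by its automatic threshold (0 and 0), so the highest-ranked 0.8% per 1000 barcodes were removed (139 and 218). Cells were integrated and clustered in Seurat 5.3.0 (R 4.3.3) with 2000 variable genes, the members left out, 30 dimensions and resolution 0.8. A cluster was named where 3 or more markers were found in 10% of its cells or more and exceeded the other clusters by 1.5-fold, so classes are rebuilt and not the authors' own. A cluster was still left unnamed where another class had more markers among its 10 leading genes, or where it was shallow and had none there. The unnamed clusters led by *Zip42C.2* were of the first kind and had 8 and 5 enterocyte markers. CPM and shares were computed from UMIs summed over the cells of a class and library (Python 3.11.15, pandas 2.3.3, scipy 1.17.1). Genes with at least 20 UMIs in the groups compared were used.

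Shares have exact binomial (Clopper-Pearson) intervals and log2 ratios exact conditional intervals, at 95%. Only the log2 ratio intervals were run on simulated counts. Those counts held counting error alone, as the intervals assume, so spread between cells or libraries was not tested. With 1 library per genotype there was no test. A gene counted as different past 0.32 on the log2 scale between libraries, or past 2-fold in both libraries between classes. Genes were named as the 5 highest and 5 lowest of each comparison among members with at least 200 UMIs in its 2 groups, every member of a pair of copies, and members with set roles; other lists give their 2 highest and 2 lowest, with some further members. The members, lists and tests were chosen with earlier results of these data known. No sequence is printed.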

Additional observations from a re-analysis of the deposited data

Results flagged for a closer look

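In 2 of the 11 enterocyte-like clusters the ribosomal protein share of summed UMIs was higher in D30A than in the control, against the direction of the other 9. The cluster led by *CG7542* and *LysC* had 20.01% in the control (388 cells) and 21.8% in D30A (370 cells), a log2 ratio of 0.12. The cluster led by *CG42700* and *CG17739* had 25.1% (235 cells) and 27.3% (46 cells), also a log2 ratio of 0.12. The difference from the other clusters was not tested, since each genotype is 1 library.

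Ribosomal protein transcripts were also present in barcodes that the filters removed, which entered no class. Their share was 18.1% in the control (144 barcodes) and 16.7% in D30A (2021 barcodes), below that of all kept cells, 36.6% and 34.6%.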

How the results depend on the processing

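No paired analysis was possible because each genotype has 1 library, and no replicate could be left out for the same reason. The values below are log2 ratios of the ribosomal protein share, in the order D30A over control in progenitor-like, enterocyte-like and enteroendocrine-like cells, then progenitor-like over enterocyte-like cells in the control and in D30A, then enteroendocrine-like over enterocyte-like cells in the control and in D30A. The values reported were −0.12, −0.052, −0.38, 1.16, 1.10, −0.29 and −0.62. Of 85 recomputed values, 12 moved by less than the counting interval, 71 moved by more and kept their sign, and 2 reversed. The reversed values came from classes set by single transcripts, which gave −0.24, −0.00083, −0.051, 1.24, 1.00, 0.18 and 0.13; the cause was not tested. Resolution 0.4 gave −0.12, −0.026, −0.39, 1.10, 1.01, −0.36 and −0.72, and resolution 1.2 gave −0.12, −0.026, −0.38, 1.12, 1.03, −0.33 and −0.68. A minimum of 500 genes with at most 10% mitochondrial UMIs gave −0.12, −0.040, −0.40, 1.18, 1.10, −0.28 and −0.65. Without doublet removal the values were −0.12, −0.046, −0.33, 1.16, 1.08, −0.28 and −0.57. Libraries merged without integration gave −0.11, −0.037, −0.39, 1.19, 1.11, −0.27 and −0.62, and variable genes with the members −0.12, −0.053, −0.39, 1.16, 1.10, −0.30 and −0.63. The mean of the share over cells gave −0.12, −0.048, −0.26, 1.05, 0.98, −0.37 and −0.58. Totals without mitochondrial genes gave −0.079, −0.020, −0.33, 1.17, 1.11, −0.28 and −0.59, and totals without the 100 most abundant other genes −0.075, −0.19, −0.32, 0.50, 0.62, −0.94 and −1.06. Weighting each enterocyte-like cluster by its mean share of UMIs, the same in both libraries, gave −0.15 for enterocyte-like cells between libraries. Among alternatives chosen after seeing the data, leaving out shared barcodes gave −0.13, −0.079, −0.38, 1.09, 1.05, −0.37 and −0.66, and keeping only enterocyte-like clusters with a marker among 10 leading genes gave −0.12, −0.060, −0.38, 1.24, 1.19, −0.22 and −0.53.

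Of 132 recomputed counts of members past a fold, 116 were within 1.5 times the reported count. The scaling to a median of 0 moved 6, given in the report. Single transcripts moved 7: 5 higher and 23 lower in progenitor-like cells between libraries, 11 higher and 8 lower in enteroendocrine-like cells, 2 lower in enterocyte-like cells, none lower in enteroendocrine-like against enterocyte-like cells, and 26 higher in progenitor-like against enteroendocrine-like cells. The count of members lower in enteroendocrine-like than enterocyte-like cells was 1, not 2, at resolution 1.2, in merged libraries and with marker-led enterocyte-like clusters. No share over all genes is given for the single-transcript counts, so no excess or its absence can be read from them. Counting error was small for abundant members, and the limit throughout is 1 library per genotype.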
